A study of Mus musculus with 43 samples.

Results

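A set of 10 imprinted genes is described here across fibroblasts, reprogramming cells and pluripotent cells of the mouse: H19, Igf2, Igf2r, Cdkn1c, Grb10, Peg3, Mest, Plagl1, Ndn and Snrpn. They are the rows with these gene symbols, 10 of 38964 genes shared by 5 deposited expression tables, and all 10 are listed above 0 in every library. Poly(A) RNA was sequenced from 43 libraries, 34 of them from courses of induced reprogramming in 4 cell systems and 9 from a Myc experiment. The 9 Myc libraries are all of Mbd3f/- lines (genotype below). They had overexpression of cMyc, of Oct4, Sox2 and Klf4 (OSK) or of both, siRNA against Myc genes, a Myc inhibitor, or scrambled siRNA as control. In every course system, secondary mouse embryonic fibroblasts (MEF, the fibroblasts taken before induction) carried a doxycycline-inducible cassette of Oct4, Klf4, Sox2 and Myc, and doxycycline was given in serum with LIF at 5% oxygen. The Mbd3f/- system, with 1 floxed and 1 null allele of the NuRD subunit gene Mbd3, gave 11 libraries: MEF, each of days 1 to 8, an established induced pluripotent stem cell (iPSC) line of at least 3 passages and an embryonic stem (ES) cell line. The Gatad2a-/- system, without the NuRD subunit gene Gatad2a, gave the same stages without ES, 10 libraries. NuRD is a complex that remodels and deacetylates chromatin, and the Mbd3f/- and Gatad2a-/- systems together are called depleted. The wild-type system WT-1 gave MEF, days 2, 4, 6 and 8, iPSC and an ES line (V6.5), 7 libraries. The wild-type system WT-2, isogenic to Gatad2a-/-, gave the same stages without ES, 6 libraries. On day 3.5 the serum medium was exchanged for one with serum replacement, LIF and 2i (inhibitors of the kinases MEK and GSK3), although another label times the inhibitors earlier. Cells from day 3 on were plated on irradiated human fibroblasts, so time, medium and feeder layer cannot be told apart. Each stage of a system is 1 library of 1 line, and the labels name no age, sex or separate culture.

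Genomic imprinting is the expression of a gene from the copy of one parent only, set by DNA methylation that is laid down in the germ line at imprinting control regions and is kept through the cell divisions of the embryo. Imprinted genes lie in clusters, and many act on fetal growth: Igf2 is a paternally expressed growth factor, H19 a maternally expressed noncoding RNA that shares its enhancers and its control region, and Igf2r a maternally expressed receptor that removes Igf2. Many of these genes are high in embryonic mesenchyme, and loss or gain of methylation at their control regions is a known event in cultured pluripotent cells. Gene-level RNA values do not separate the parental copies, so nothing below measures imprinting itself.

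The levels are FPKM, fragments scaled to transcript length and to library size, a scale per length on which genes can be set beside each other. Differences are on the log2(FPKM + 1) scale, which understates the change of low genes. The labelled cell types were checked against summed FPKM of marker lists. Fibroblast markers (12 of 12 found) summed to between 2649 and 7699 in the 4 MEF libraries and to between 27.1 and 145 in the 4 iPSC libraries. The WT-2 libraries of days 2 to 8 stood apart: Pou5f1, which encodes the induced factor Oct4, was listed there at 0 to 0.832 FPKM and Sox2 at 0.237 to 0.429, against 1648 and 249 in WT-2 iPSC. Pluripotency markers (10 of 10 found) summed to between 0.345 and 3.2 in WT-2 on days 4 to 8, with up to 7 of the 10 at 0. Macrophage and blood markers (7 of 8 found) summed to between 4172 and 8435 in the same libraries and to 4650 in WT-2 MEF. The class differences on days 4, 6 and 8 are therefore also given without WT-2. They then rest on 1 wild-type line with 1 MEF library, so class and line cannot be told apart. In WT-1 on days 2 to 8 Pou5f1 was at 2.45 to 171 FPKM, against 1.79 in its MEF. Sox2 was there at 0.0609 to 6.93, against 0.0847. The WT-1 pluripotency sum was 4.32 in MEF, 3.13 on day 2 and 30.5 to 240 on days 4 to 8. By this sum WT-1 on day 2 was not above its MEF. The Gatad2a-/- libraries stood apart in another way: all their FPKM summed to between 1493838 and 10044225, with day 6 the highest, against 573565 to 917084 in the other 3 systems. The 10 highest genes held 48.8% to 90.6% of these sums, against 5.05% to 20.4%, while the median over genes at an FPKM of 1 or more was 9.72 to 10.9 in Gatad2a-/- and 10.4 to 13.3 in the others. Gatad2a itself was at 8.59 to 14.7 FPKM in the Gatad2a-/- libraries and at 9.17 to 38.5 in WT-2, and Mbd3 at 36.3 to 96.5 in Mbd3f/- and 75.3 to 117 in WT-1, so gene-level FPKM does not check these labels. In such bulk libraries, fewer cells of a type and less RNA per cell cannot be told apart.

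Most of the 10 genes were lower in iPSC than in the fibroblasts they came from, and Snrpn was higher. Over the 4 systems 8 of 10 fell, 1 (Snrpn) rose and 1 (Grb10) passed no threshold, in limma with Benjamini-Hochberg adjustment over all genes. Among all 20296 genes tested, 53% passed in this comparison, 23.9% lower and 29% higher. The median difference of the 10 genes was -2.53, against 0.14 over all genes. In the depleted systems 7 of 10 were already lower on days 4, 6 and 8 than in MEF and Snrpn was higher, where 40.3% of genes passed (18.8% lower, 21.6% higher). The median there was -2.54, against 0.20 over all genes. In the wild-type systems 0 of 10 passed over the same days, with 1.01% of all genes passing. At an unadjusted p under 0.05, 1 of the 10 (Cdkn1c, higher) and 2794 genes were counted there. The difference between the classes was itself tested: 7 of 10 (H19, Igf2, Igf2r, Cdkn1c, Mest, Plagl1 and Ndn) were lower in depleted cells relative to their own MEF, where 17.3% of genes passed (10.4% lower). Without WT-2, 5 of 10 were lower (all but Igf2r and Ndn of these 7), where 5.37% of genes were. In a fit without the system as a block 2 of the 7, H19 and Plagl1, passed. The fits take the days of 1 line as separate libraries once the line is accounted for, and p-values thus reflect how these libraries vary, not how independent cultures would. Marker lists moved with these results. The fibroblast sum on days 4 to 8 was 28.4 to 315 in the depleted systems and 2669 to 9819 in the wild-type ones. Macrophage and blood markers fell in 5 of 7 on depleted days 4, 6 and 8 (median -4.01), from a sum of 1191 in Mbd3f/- MEF to 37.5 to 77.3 and from 253 in Gatad2a-/- MEF to 47.0 to 80.6. Pluripotency markers rose in 10 of 10 (median 5.29), and in the class difference 9 of 10 were higher. Skeletal muscle markers (7 of 8 found) already differed in MEF, with sums of 59.4 in Mbd3f/- and 104 in Gatad2a-/-. The wild-type MEF sums were 0.780 in WT-1 and 3.92 in WT-2. On days 4 to 8 the sum was 2.06 to 13.6 in the depleted systems and at most 4.33 in the wild-type ones. Of the 2 muscle markers tested, 1 fell on depleted days 4, 6 and 8 and 1 was lower in the class difference. The part of these cell types in the results was not tested.

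**Figure D1:**
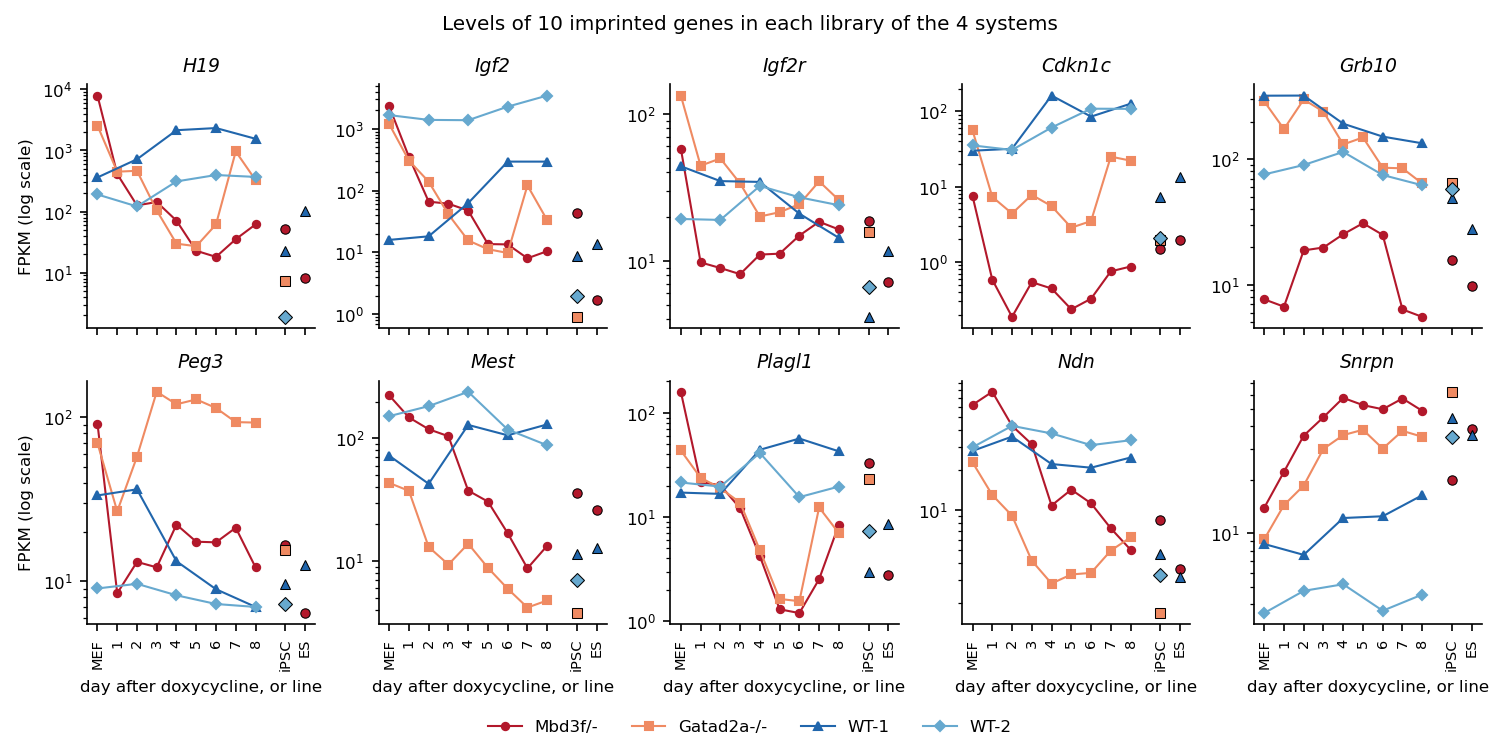
FPKM of the 10 imprinted genes (log axis) by stage, from MEF through the days of induction to iPSC and ES, with 1 point per library and 1 line per system. In H19, Igf2 and Plagl1 the depleted lines run far below their MEF by day 6 (H19 18.1 and 61.7 FPKM), the wild-type lines do not (2327 and 397), and Snrpn runs the other way.

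H19 and Igf2 lie 72.6 kb apart on chromosome 7. H19 spans chr7:142575529-142578143 (GRCm38, minus strand; GENCODE M21), a long noncoding RNA of up to 5 exons that holds the miRNA gene Mir675. Igf2 spans chr7:142650766-142666816 on the same strand, a coding gene of up to 6 exons that holds Mir483 and overlaps an antisense gene, Igf2os. The library kit does not mark strand, so reads of Igf2 and Igf2os cannot be told apart. Both host genes were among those with the largest differences, so the mature miRNAs they carry are shown (RefSeq, GRCm38.p6), read 5′ to 3′ with the seed, bases 2 to 8, in capitals. All 4 seeds differ, and poly(A) libraries do not measure the mature forms.
mmu-miR-675-5p: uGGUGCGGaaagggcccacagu
mmu-miR-675-3p: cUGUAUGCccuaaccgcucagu
mmu-miR-483-5p: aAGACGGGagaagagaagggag
mmu-miR-483-3p: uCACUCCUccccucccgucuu

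H19 was the most abundant of the 10 genes in MEF by the median over the 4 systems (1457 FPKM). In the Mbd3f/- course it stood at 7918 FPKM in MEF, at 411, 126, 143, 71.0, 22.8, 18.1, 35.3 and 61.5 on days 1 to 8, at 52.0 in the iPSC line and at 8.06 in the ES line. The Gatad2a-/- cells had 2552 in MEF, then 449.6, 465, 104, 29.8, 27.1, 61.7, 964 and 328 on days 1 to 8, and 7.38 in the iPSC line. The MEF level exceeded the lowest day 436-fold in Mbd3f/- and 94.1-fold in Gatad2a-/-. Day 7 of Gatad2a-/- stands out, with 964 FPKM where its neighbours had 61.7 and 328. The fibroblast marker sum was 315 on day 6 and 277 on day 7, and its part in the H19 level was not tested. After quantile normalization of the daily libraries H19 was at 5.91, 9.62 and 8.28 on the log2 scale on days 6, 7 and 8, so day 7 was the highest of the 3 there too. In WT-1 H19 stood at 362 in MEF, 719, 2146, 2327 and 1554 on days 2, 4, 6 and 8, 22.8 in the iPSC line and 102 in the ES line. In WT-2 it stood at 191 in MEF, 121, 312, 397 and 369 on those days and 1.89 in the iPSC line. The MEF libraries of the depleted systems were thus both above those of the wild-type ones, and on days 4, 6 and 8 the order was nearly the reverse, with 1 depleted library (Gatad2a-/- day 8) inside the wild-type range.

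H19 fell by 6.36 ± 0.72 (log2, SE; 4 systems) from MEF to iPSC (limma adjusted p = 9.1e-06), and was lower in each of the 4 systems. Over days 4, 6 and 8 it fell by 6.19 ± 0.83 in the depleted systems (limma adjusted p = 8.9e-05). In the wild-type systems the difference was 1.68 ± 0.83 (limma adjusted p = 0.40), 2.45 in WT-1 and 0.90 in WT-2. The fitted depleted minus wild-type difference was -7.86 ± 1.17 (limma adjusted p = 0.00071), and without WT-2 it was -8.64 (limma adjusted p = 0.032).

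Igf2, the growth factor of the pair, had an MEF median of 1428 FPKM, next below H19. In Mbd3f/- it stood at 2302 in MEF, at 351, 66.2, 61.3, 47.5, 13.6, 13.5, 8.03 and 10.5 on days 1 to 8, 42.6 in the iPSC line and 1.71 in the ES line. For Gatad2a-/- the levels were 1192 in MEF, then 306, 139, 41.1, 15.6, 11.3, 9.79, 121 and 33.2, and 0.906 in the iPSC line. Both courses ran down, 287-fold to day 7 and 122-fold to day 6, and day 7 of Gatad2a-/- was again above its neighbours. In WT-1 Igf2 stood at 15.9 in MEF, 18.2, 62.6, 294 and 294 on days 2, 4, 6 and 8, 8.68 in the iPSC line and 13.8 in the ES line. In WT-2 it stood at 1663 in MEF, 1391, 1375, 2278 and 3443 on those days and 1.94 in the iPSC line. The 2 wild-type lines were therefore far apart in MEF for Igf2 and not for H19 (362 and 191). The WT-1 MEF level of Igf2 was the lowest of the 4 systems, and without WT-2 it alone stands for wild-type MEF. On days 4, 6 and 8 the 6 depleted libraries (9.79 to 47.5) lay below all 6 wild-type ones (62.6 to 3443).

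Igf2 fell by 6.24 ± 1.15 from MEF to iPSC (limma adjusted p = 5e-04), lower in 4 of 4 systems but by only 0.81 in WT-1. In the depleted systems it fell by 6.44 ± 1.33 on days 4, 6 and 8 (limma adjusted p = 0.002), which did not pass without Mbd3f/- (-6.03, limma adjusted p = 0.10). The wild-type difference was 1.90 ± 1.33 (limma adjusted p = 0.62), 3.39 in WT-1 and 0.41 in WT-2. The fitted difference between the classes was -8.33 ± 1.88 (limma adjusted p = 0.0091). It passed without WT-2 (-9.82, limma adjusted p = 0.022) and did not pass without Mbd3f/- (-7.93, limma adjusted p = 0.11) or without Gatad2a-/- (-8.74, limma adjusted p = 0.057).

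A further pair of genes acts against growth factor signalling, Igf2r and Grb10. Igf2r (chr17:12682406-12769664, minus strand, up to 48 exons) encodes the receptor that carries Igf2 to the lysosome, and over 28.4 kb it is overlapped on the other strand by Airn, the noncoding RNA that silences its paternal copy. Without strand, reads of the shared stretch cannot be told apart. In Mbd3f/- Igf2r stood at 58.1 FPKM in MEF, at 9.76, 8.94, 8.12, 11, 11.2, 14.9, 18.4 and 16.4 on days 1 to 8, 18.8 in the iPSC line and 7.18 in the ES line. Its Gatad2a-/- levels were 133 in MEF, then 44.4, 49.7, 33.6, 20.02, 21.4, 24.3, 34.8 and 25.9, and 15.8 in the iPSC line. The lowest levels were reached by day 3 and day 4, 7.15-fold and 6.65-fold below MEF. In WT-1 it stood at 44.0 in MEF, 34.9, 34.4, 20.9 and 14.3 on days 2 to 8, 4.16 in the iPSC line and 11.7 in the ES line, and in WT-2 at 19.3, 19, 32.3, 27.1, 23.9 and 6.6 in the iPSC line. Depleted and wild-type ranges overlapped on days 4, 6 and 8, while in iPSC both depleted values lay above both wild-type ones. With 2 libraries on each side, 4 of 10 genes were apart in iPSC: Igf2r, Peg3 and Plagl1 higher and Cdkn1c lower in depleted cells. The share of all genes was not counted for iPSC, and in MEF, also 2 against 2, it was 27.2%. Nothing particular to these genes is therefore read from the iPSC count. Igf2r fell by 2.28 ± 0.37 from MEF to iPSC (limma adjusted p = 0.00016; 4 of 4 systems) and fell by 2.23 ± 0.42 on days 4, 6 and 8 of the depleted systems (limma adjusted p = 0.0011). The class difference of -1.98 ± 0.60 (limma adjusted p = 0.037) did not pass without WT-2 (-1.25, limma adjusted p = 0.38), without Mbd3f/- (-2.22, limma adjusted p = 0.084), without Gatad2a-/- (-1.74, limma adjusted p = 0.12) or without day 8 of Gatad2a-/- (-1.93, limma adjusted p = 0.060), nor without the filter on low values.

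Airn itself was at 11 FPKM in Mbd3f/- MEF, 0.144 to 1.08 on its days and 0.124 in the iPSC line. In Gatad2a-/- Airn was at 16.1, 0.998 to 6.83 and 0.466, in WT-1 at 5.33, 8.13 to 10.5 and 0.0251, and in WT-2 at 5.30, 3.60 to 4.70 and 0.115. Airn was thus near 0 in all 4 iPSC lines, and its days lay below MEF in both depleted courses and in WT-2, and above MEF in WT-1.

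Grb10 (chr11:11930508-12038683, minus strand, up to 17 exons) encodes an adaptor that binds the insulin and IGF1 receptors and dampens their signal. It stood at 7.65 FPKM in Mbd3f/- MEF, 6.69, 18.8, 19.8, 25.3, 30.9, 25, 6.35 and 5.54 on days 1 to 8, 15.6 in the iPSC line and 9.85 in the ES line. The Gatad2a-/- cells had 289.6 in MEF, then 174, 299.8, 239.6, 131, 149, 85.7, 84.7 and 64.2, and 65.3 in the iPSC line. In WT-1 it stood at 321, 322, 192, 152 and 134, 49.2 in the iPSC line and 27.9 in the ES line, and in WT-2 at 75.7, 90.1, 115, 74.9 and 62.1, and 57.8 in the iPSC line. Days 2 to 6 of Mbd3f/- lay above their MEF and days 3 to 8 of Gatad2a-/- below theirs, and the Mbd3f/- MEF level was the lowest of the 4 by far. The mean difference from MEF to iPSC was -1.06 ± 0.48 (limma adjusted p = 0.08), with 0.94 in Mbd3f/- and -2.13, -2.68 and -0.38 in Gatad2a-/-, WT-1 and WT-2. Without Mbd3f/- it was -1.83 (limma adjusted p = 0.024). The class difference on days 4, 6 and 8 was 0.09 (limma adjusted p = 0.95; 0.65 without WT-2, limma adjusted p = 0.80).

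Cdkn1c and Plagl1 both restrain the cell cycle. Cdkn1c (chr7:143458339-143461050, minus strand, up to 4 exons, 880.2 kb from H19) encodes the CDK inhibitor p57, and an antisense gene, Gm44732, overlaps it. In Mbd3f/- it stood at 7.53 FPKM in MEF, 0.583, 0.187, 0.54, 0.445, 0.236, 0.326, 0.752 and 0.871 on days 1 to 8, 1.47 in the iPSC line and 1.98 in the ES line. For Gatad2a-/- the levels were 56.1 in MEF, then 7.33, 4.4, 7.79, 5.52, 2.86, 3.49, 25.1 and 22.2, and 1.96 in the iPSC line. Both lines were already low on day 1, and Gatad2a-/- was higher again on days 7 and 8. In WT-1 Cdkn1c stood at 30.1 in MEF, 31.9, 162, 85.2 and 126 on days 2, 4, 6 and 8, 7.3 in the iPSC line and 13.5 in the ES line. In WT-2 it stood at 35.3, 30.8, 61.1, 109, 108 and 2.09 in the iPSC line. All 6 wild-type libraries of days 4, 6 and 8 (61.1 to 162) lay above their MEF and above all 6 depleted ones (0.326 to 22.2). Cdkn1c fell by 2.88 ± 0.44 from MEF to iPSC (limma adjusted p = 0.00011; 4 of 4 systems) and fell by 2.59 ± 0.50 on those days in the depleted systems (limma adjusted p = 0.0013, 0.077 without the system block). The wild-type difference was 1.64 ± 0.50 (limma adjusted p = 0.16), and the class difference was -4.23 ± 0.71 (limma adjusted p = 0.0016; -4.56 without WT-2, limma adjusted p = 0.025).

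Plagl1 (chr10:13060504-13131694, plus strand, up to 9 exons) encodes Zac1, a zinc finger factor known to act on other imprinted genes. In Mbd3f/- it stood at 159 FPKM in MEF, 21.7, 20.2, 12.2, 4.22, 1.3, 1.2, 2.53 and 8.45 on days 1 to 8, 32.8 in the iPSC line and 2.8 in the ES line. Its Gatad2a-/- levels were 43.5 in MEF, then 23.8, 18.9, 13.7, 4.8, 1.64, 1.56, 12.4 and 6.99, and 23.3 in the iPSC line. In both depleted courses the lowest day was day 6, 133-fold and 27.9-fold below MEF, and the iPSC level was far above it. In WT-1 Plagl1 stood at 17.2 in MEF, 16.7, 44.2, 56.6 and 42.7 on the days, 2.96 in the iPSC line and 8.57 in the ES line, and in WT-2 at 21.4, 19.6, 41.2, 15.5, 19.6 and 7.37. On days 4, 6 and 8 the depleted libraries (1.2 to 8.45) lay below the wild-type ones (15.5 to 56.6). In iPSC they lay above them, with 2 libraries on each side. Plagl1 fell by 1.68 ± 0.41 from MEF to iPSC (limma adjusted p = 0.0036; 4 of 4 systems), and this did not pass without Mbd3f/-. Over days 4, 6 and 8 it fell by 4.12 ± 0.48 in the depleted systems (limma adjusted p = 2.7e-05), and the class difference was -4.89 ± 0.67 (limma adjusted p = 0.00042; -5.54 without WT-2, limma adjusted p = 0.0033).

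Mest and Peg3 are paternally expressed genes of mesoderm and placenta. Mest (chr6:30723547-30748465, plus strand, up to 13 exons) encodes a hydrolase-like membrane protein, and 0.912 kb of it overlap Copg2 on the other strand. It is the host of Mir335, whose 2 mature forms are shown as for the other hosts, with the seed in capitals.
mmu-miR-335-5p: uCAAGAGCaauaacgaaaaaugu
mmu-miR-335-3p: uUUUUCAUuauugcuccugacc

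In Mbd3f/- Mest stood at 225 FPKM in MEF, 148, 119, 104, 37.6, 30.6, 16.9, 8.75 and 13.4 on days 1 to 8, 35.8 in the iPSC line and 26.3 in the ES line. The Gatad2a-/- cells had 43.4 in MEF, then 37.4, 13, 9.39, 13.9, 8.83, 5.96, 4.19 and 4.78, and 3.77 in the iPSC line. Mest thus came down later than H19, first under 50% of MEF on day 3 and day 2, where H19 was under it on day 1 in both. In WT-1 it stood at 72.4, 42.7, 129, 106 and 130.1, 11.4 in the iPSC line and 12.7 in the ES line, and in WT-2 at 152, 183, 240.0, 118, 87.9 and 7.0. Depleted (4.78 to 37.6) and wild-type (87.9 to 240.0) ranges did not overlap on days 4, 6 and 8. Mest fell by 3.16 ± 0.42 from MEF to iPSC (limma adjusted p = 4e-05; 4 of 4 systems). On days 4, 6 and 8 it fell by 2.89 ± 0.49 in the depleted systems (limma adjusted p = 0.00051), and the class difference was -3.18 ± 0.69 (limma adjusted p = 0.0075; -3.63 without WT-2, limma adjusted p = 0.020). Without Mbd3f/- neither passed (-2.40 and -2.68, limma adjusted p = 0.074 and 0.12).

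Peg3 (chr7:6703892-6730431, minus strand, up to 10 exons) encodes a zinc finger protein. In Mbd3f/- it stood at 91.5 FPKM in MEF, 8.47, 13.1, 12.2, 22.2, 17.5, 17.3, 21.2 and 12.2 on days 1 to 8, 16.7 in the iPSC line and 6.41 in the ES line. For Gatad2a-/- the levels were 69.6 in MEF, then 26.7, 57.5, 143, 119.9, 128, 114, 93.4 and 92.8, and 15.5 in the iPSC line. In WT-1 it stood at 33.4, 36.4, 13.3, 8.96 and 6.99, 9.63 in the iPSC line and 12.5 in the ES line, and in WT-2 at 9.06, 9.67, 8.23, 7.28, 6.99 and 7.29. Both depleted lines were low on day 1, after which Gatad2a-/- stayed above its MEF from day 3 to day 8 and Mbd3f/- did not. Peg3 fell by 1.61 ± 0.52 from MEF to iPSC (limma adjusted p = 0.018; 4 of 4 systems), a call that did not pass without WT-1, without WT-2 or without the system block. On days 4, 6 and 8 the depleted difference was -0.88 ± 0.60 (limma adjusted p = 0.25), -2.38 in Mbd3f/- and 0.63 in Gatad2a-/-, and the class difference was 0.11 (limma adjusted p = 0.94; 0.84 without WT-2, limma adjusted p = 0.77).

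Ndn and Snrpn lie in the cluster known from Prader-Willi syndrome, and both are paternally expressed. Ndn (chr7:62346569-62350262, plus strand, 1 exon) encodes necdin, a growth-suppressing protein of neurons and mesenchyme, and Gm32061 lies antisense to it. In Mbd3f/- it stood at 62.1 FPKM in MEF, 77.9, 43.2, 31.4, 10.9, 14.3, 11.3, 7.31 and 5.05 on days 1 to 8, 8.42 in the iPSC line and 3.61 in the ES line. Its Gatad2a-/- levels were 22.9 in MEF, then 13, 9.11, 4.17, 2.81, 3.29, 3.38, 4.97 and 6.25, and 1.68 in the iPSC line. In WT-1 it stood at 28.0, 35.8, 22.3, 20.9 and 24.9, 4.72 in the iPSC line and 3.16 in the ES line, and in WT-2 at 29.8, 43.2, 37.9, 30.9, 33.7 and 3.28. The wild-type days (20.9 to 37.9 on days 4, 6 and 8) stayed close to their MEF and above all depleted ones (2.81 to 11.3). Ndn fell by 2.77 ± 0.31 from MEF to iPSC (limma adjusted p = 7.2e-06; 4 of 4 systems) and fell by 2.50 ± 0.35 on days 4, 6 and 8 of the depleted systems (limma adjusted p = 0.00013). The class difference was -2.44 ± 0.50 (limma adjusted p = 0.005) and did not pass without WT-2 (-2.21, limma adjusted p = 0.11).

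Snrpn, which encodes a splicing protein, was the member that rose. The deposited row named Snrpn carries an identifier that GENCODE M21 names Gm38393, at chr7:59974149-60005064 on the minus strand. This gene model overlaps Snrpn, Snurf and the noncoding Snhg14 on the same strand, so reads of these genes cannot be told apart. In Mbd3f/- it stood at 13.9 FPKM in MEF, 22.2, 35.5, 45.1, 58.0, 52.8, 50.01, 57.5 and 49.0 on days 1 to 8, 19.9 in the iPSC line and 38.7 in the ES line. The Gatad2a-/- cells had 9.25 in MEF, then 14.4, 18.6, 29.9, 35.8, 38.3, 30.0, 37.8 and 35.0, and 62.7 in the iPSC line. Both depleted courses reached about 4.16-fold and 4.15-fold of MEF by days 4 and 5. In WT-1 it stood at 8.71, 7.56, 12.2, 12.5 and 16.4, 44.7 in the iPSC line and 35.8 in the ES line, and in WT-2 at 3.55, 4.74, 5.16, 3.66, 4.52 and 34.9. The wild-type days were at most 1.88-fold and 1.45-fold of MEF, and their iPSC 5.14-fold and 9.83-fold. Snrpn rose by 2.09 ± 0.35 from MEF to iPSC (limma adjusted p = 2e-04; 4 of 4 systems) and by 1.79 ± 0.40 on days 4, 6 and 8 of the depleted systems (limma adjusted p = 0.0031). The class difference of 1.37 ± 0.56 did not pass (limma adjusted p = 0.11; 1.21 without WT-2, limma adjusted p = 0.46). The ranges of those days (30.0 to 58.0 depleted, 3.66 to 16.4 wild-type) did not overlap, and those of MEF (9.25 to 13.9 and 3.55 to 8.71) did not either.

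**Figure D2:**
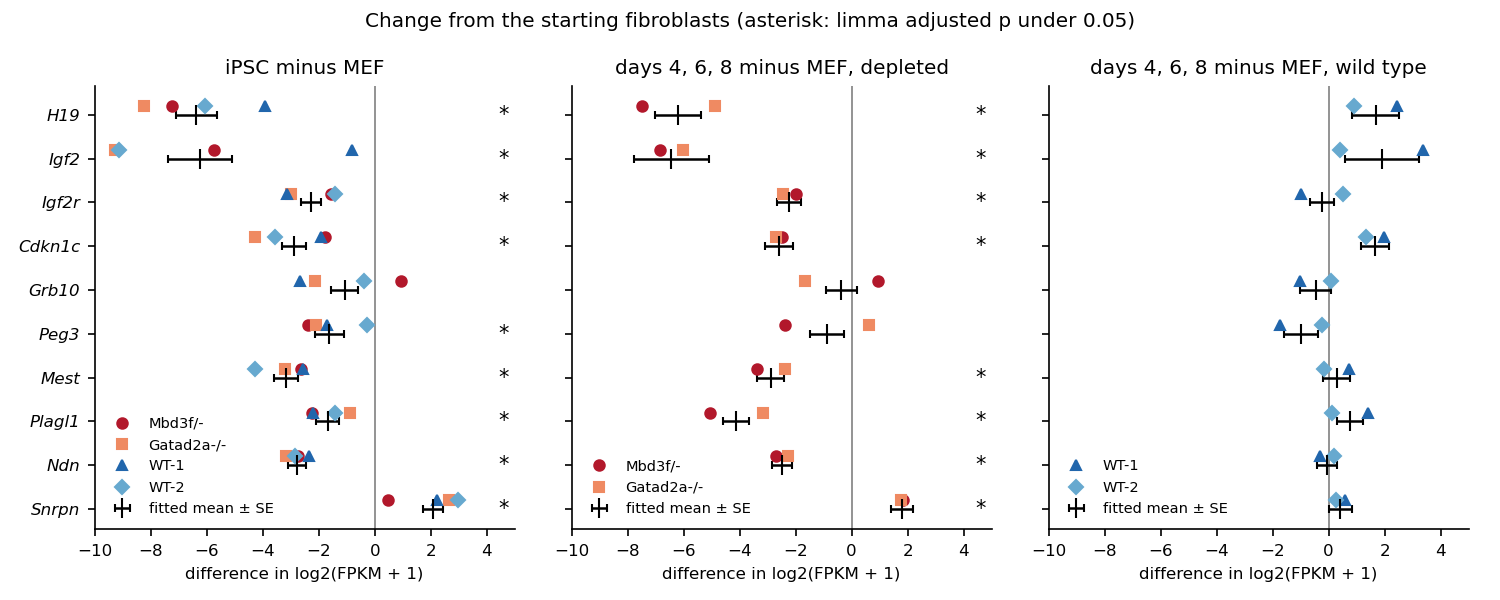
Differences in log2(FPKM + 1) of the 10 genes in 3 comparisons: iPSC minus MEF, and days 4, 6 and 8 minus MEF in depleted and in wild-type systems. Small points are single systems, larger marks with bars the fitted mean ± SE, and asterisks mark limma adjusted p under 0.05. The wild-type panel has no asterisk, and its H19, Igf2 and Cdkn1c means (1.68, 1.90 and 1.64) lie above 0 where the depleted means (-6.19, -6.44 and -2.59) lie below.

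Set side by side as levels per length, the genes changed order between the states. In MEF the medians over the 4 systems ran from H19 (1457 FPKM) and Igf2 (1428) through Grb10 (183), Mest (112), Peg3 (51.5), Igf2r (51.1), Cdkn1c (32.7), Plagl1 (32.5) and Ndn (28.9) to Snrpn (8.98). From H19 to Ndn the range of each gene over the systems overlapped that of the next, so neighbours among them do not differ beyond their spread. In iPSC the order of medians ran from Grb10 (53.5) and Snrpn (39.8) through Plagl1 (15.3), H19 (15.1), Peg3 (12.6), Igf2r (11.2), Mest (9.2), Igf2 (5.31) and Ndn (4.0) to Cdkn1c (2.03). There the range of every gene overlapped that of the next (H19 1.89 to 52.0, Igf2 0.906 to 42.6), so neighbours do not differ beyond their spread. MEF and iPSC ranges over the 4 systems did not overlap in 6 genes (H19, Igf2r, Cdkn1c, Mest, Ndn and Snrpn), and neither did those of 32.9% of all genes tested. Over days 4, 6 and 8 the ranges of 6 depleted and 6 wild-type libraries did not overlap in 6 genes, with Snrpn higher and Igf2, Cdkn1c, Mest, Plagl1 and Ndn lower in depleted cells, and 21.8% of all genes did not overlap there. Without WT-2 it was 8 of 10, with H19 and Grb10 added, and 30% of all genes. The depleted and wild-type ranges were already apart in MEF in 5 of 10 (H19, Igf2r, Peg3, Plagl1 and Snrpn) and in 27.2% of all genes, with Plagl1 then higher in depleted cells (43.5 and 159 against 17.2 and 21.4 FPKM).

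**Figure D3:**
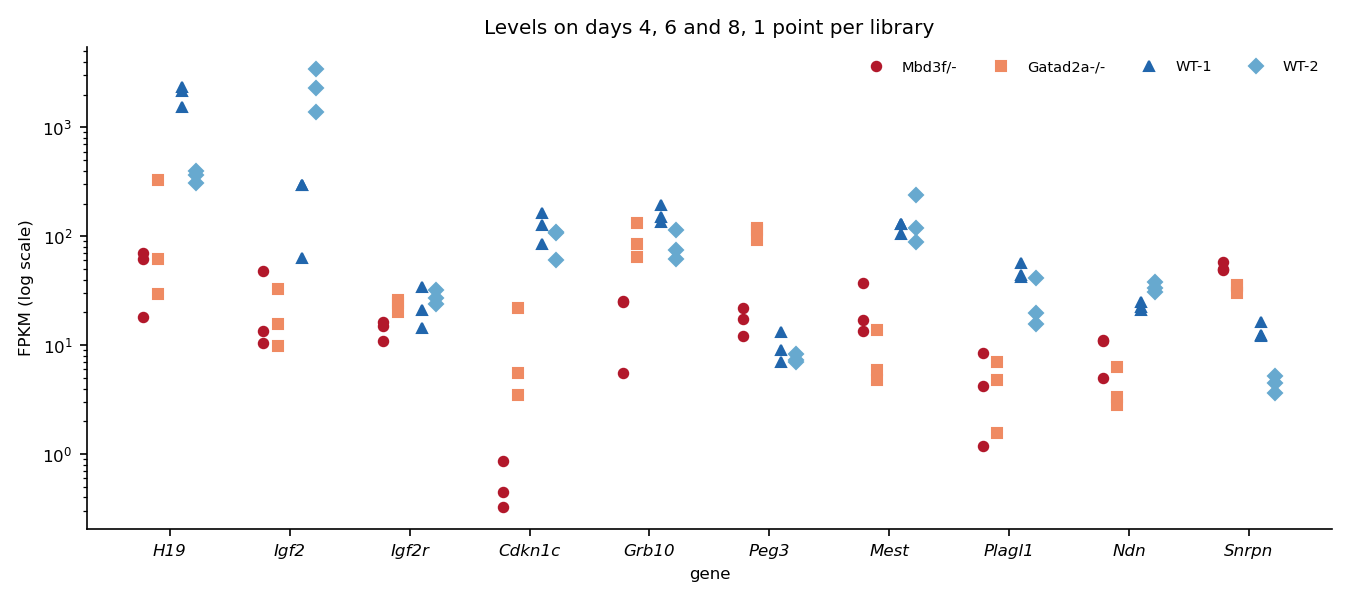
FPKM (log axis) of the 10 genes in the single libraries of days 4, 6 and 8, with 3 points per system. The depleted and wild-type points separate in 6 genes (as in 21.8% of all genes), of which Plagl1 and Snrpn were already separate in MEF, and in H19 they meet at Gatad2a-/- day 8 (328 FPKM) and WT-2 day 4 (312).

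The daily libraries of the depleted systems show when each gene moved. Between MEF and days 1 to 3, 5 of 10 fell and 1 rose, where 33.8% of genes passed (14.2% lower, 19.6% higher). These were H19 (-4.26 ± 1.13, limma adjusted p = 0.012), Igf2 (-3.81 ± 1.10, limma adjusted p = 0.019), Igf2r (-2.11 ± 0.41, limma adjusted p = 0.0017), Cdkn1c (-2.77 ± 0.53, limma adjusted p = 0.0017) and Plagl1 (-2.16 ± 0.47, limma adjusted p = 0.0039). Without the system block the calls of Igf2r and Cdkn1c over these days did not pass. Snrpn rose by 1.11 ± 0.37 (limma adjusted p = 0.036), a call that did not pass without the filter on low values, without the system block or after quantile normalization. Mest (-1.10, limma adjusted p = 0.078), Peg3 (-1.57, limma adjusted p = 0.088) and Ndn (-0.90, limma adjusted p = 0.16) did not pass. All 12 fibroblast markers fell over the same days, and their sum was then 149 to 867 FPKM.

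From days 3 and 4 to days 5 and 6 Plagl1 alone of the 10 passed (-1.86 ± 0.41, limma adjusted p = 0.025; -1.88 in Mbd3f/- and -1.83 in Gatad2a-/-), where 4.75% of genes passed (1.83% lower). From days 5 and 6 to days 7 and 8 Plagl1 was again the 1 member to pass, now higher (1.68 ± 0.41, limma adjusted p = 0.028; 1.36 and 1.99), where 8.03% of genes passed (4.69% higher). Plagl1 thus fell and then rose within the depleted courses. The rise did not pass when days 7 and 8 of Gatad2a-/- were left out (1.16, limma adjusted p = 0.15), and neither change passed without the filter on low values or without the system block. H19 (2.45, limma adjusted p = 0.17; 1.16 in Mbd3f/- and 3.75 in Gatad2a-/-), Cdkn1c (1.53, limma adjusted p = 0.064) and Igf2 (0.99; -0.52 and 2.49) had positive means over the same step, most of it in Gatad2a-/-. The fibroblast sums of Gatad2a-/- on days 5 to 8 were 217, 315, 277 and 172 FPKM, and the pluripotency sums were 589, 1271, 1949 and 2514. The part of cell types in these differences was not tested.

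From days 7 and 8 to iPSC 0 of 10 passed, where 1.97% of genes passed; 3 of 10 (H19, Cdkn1c and Plagl1) and 2258 genes had an unadjusted p under 0.05. Plagl1 was higher in both lines (1.89 ± 0.50, limma adjusted p = 0.093; 2.55 and 1.23). H19 differed by 0.15 in Mbd3f/- and by -6.07 in Gatad2a-/-, and Igf2 by 2.10 and -5.08, so the 2 established lines ended apart: H19 at 52.0 and 7.38 FPKM and Igf2 at 42.6 and 0.906. The class difference in iPSC minus MEF passed for 0 of 10 genes, where 0.31% of genes passed, and an unadjusted p under 0.05 was found for 0 of 10 and for 2179 genes.

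ES cells could be set beside iPSC in Mbd3f/- and WT-1. Limma called 0 of 10 genes and 0% of all 15929 tested, and an unadjusted p under 0.05 was found for 0 of 10 and for 43 genes. This fit has 1 mean per stage for both systems, so their differing courses on days 2 to 8 count as spread. The test could thus hardly call a difference, and no likeness of ES and iPSC is read from it. In Mbd3f/- the ES values were lower than iPSC for H19 (8.06 and 52.0 FPKM), Igf2 (1.71 and 42.6) and Plagl1 (2.8 and 32.8). In WT-1 they were higher, at 102 and 22.8 for H19, 13.8 and 8.68 for Igf2 and 8.57 and 2.96 for Plagl1. The 2 lines thus differed in opposite directions in these 3 genes, with 1 library on each side.

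Other imprinted genes were read from a list of 46, of which 44 were found and 34, each in a single row and past the filter on low values, were tested. From MEF to iPSC 14 fell, 8 rose and 12 passed no threshold, with a median of -0.23 against 0.14 over all genes, of which 23.9% fell and 29% rose. The largest differences were falls of Dlk1 (-7.14 ± 0.41, limma adjusted p = 3.3e-08), a membrane protein of fetal tissues, Dcn (-5.16 ± 0.62, limma adjusted p = 1.6e-05), a matrix proteoglycan, and the noncoding RNA Meg3 (-4.32 ± 0.62, limma adjusted p = 6.7e-05). Sgce, a sarcoglycan, fell by 3.70 ± 0.21 (limma adjusted p = 2.6e-08). In the class difference on days 4, 6 and 8, 10 of 34 were lower in depleted cells and 1 (Sfmbt2, named after its value of 2.53 was seen) was higher, where 10.4% of all genes were lower and 6.97% higher, with Dcn at -6.69 ± 1.01 (limma adjusted p = 8e-04), Meg3 at -3.95 ± 1.01 (limma adjusted p = 0.017), Dlk1 at -3.44 ± 0.67 (limma adjusted p = 0.0037) and Sgce at -2.73 ± 0.33 (limma adjusted p = 0.00019). Airn, the antisense partner of Igf2r, was at -3.06 ± 0.57 (limma adjusted p = 0.0028). Without WT-2, 5 of 34 were lower and 1 higher (5.37% and 1.36% of all genes). Dcn (-7.71, limma adjusted p = 0.0019), Sgce (-2.66, limma adjusted p = 0.020) and Airn (-3.58, limma adjusted p = 0.028) then passed, and Meg3 (-3.70, limma adjusted p = 0.17) and Dlk1 (-2.86, limma adjusted p = 0.065) did not.

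Genes of imprint protection and DNA methylation, a list that includes Tet1, Tet2 and Tet3, mostly ran the other way. Of 13 listed, 10 rose from MEF to iPSC, 1 fell (Tet3, named after its value of -1.51 was seen) and 2 passed no threshold, with a median of 2.13, where 29% of all genes rose. Dnmt3l, a cofactor of DNA methylation, rose by 5.60 ± 0.57 (limma adjusted p = 3.9e-06) and the methyltransferase gene Dnmt3b by 3.92 ± 0.34 (limma adjusted p = 8.6e-07). Zfp57, whose product binds methylated imprinting control regions, rose by 3.73 ± 0.33 (limma adjusted p = 1e-06). In the class difference on days 4, 6 and 8, 6 of 13 were higher in depleted cells, where 6.97% of all genes were, and Tet3 (-1.08) was lower, with Dnmt3b at 1.94 ± 0.55 (limma adjusted p = 0.028) and Zfp57 at 1.52 ± 0.53 (limma adjusted p = 0.066). Without WT-2, 2 of 13 were higher and Dnmt3b (1.27, limma adjusted p = 0.33) did not pass, with Zfp57 at 1.8 (limma adjusted p = 0.19). Of 8 genes of the IGF pathway and of Igf2 mRNA binding, 2 rose (Igf2bp1 and Igf2bp3) and 5 fell from MEF to iPSC: the ligand gene Igf1 fell by 4.84 ± 0.59 (limma adjusted p = 1.8e-05), the receptor gene Igf1r fell by 2.29 ± 0.28 (limma adjusted p = 1.5e-05) and Igf2bp1, for an mRNA-binding protein, rose by 2.63 ± 0.25 (limma adjusted p = 2e-06).

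The motif bound by ZFP57 is TGCCGC, or GCGGCA on the other strand, and promoter windows of RefSeq (GRCm38.p6; 250 bases before to 50 after each start, 300 in all) were searched for it on both strands. A window was listed for 8 of the 10 genes; H19 and Cdkn1c are named only. In the window of each gene with the most CpG, 4 of 8 held the motif (Grb10, Mest, Plagl1 and Snrpn), against 11.6% of all 32851 windows. CpG dinucleotides numbered 45 in Grb10, 34 in Igf2r, 26 in Plagl1, 24 in Igf2, 17 in Mest, 13 in Peg3, 11 in Ndn and 7 in Snrpn, against a median of 7 (quartiles 3 and 20) over all windows. The windows of the 8 genes were picked for their CpG, and the motif itself holds a CpG. The 11.6% is over windows that were not picked, so these shares are not alike and no excess is read from them. A match to these letters is a description, not a binding site. Zfp57 rose on days 4, 6 and 8 of the depleted courses (2.04 ± 0.38, limma adjusted p = 0.00093), and a link to the motif was not tested. Of the genes with the motif, Mest and Plagl1 fell on those days, Snrpn rose and Grb10 did not pass. Of those whose windows held none, Igf2, Igf2r and Ndn fell and Peg3 did not pass. In Mest and Plagl1 a motif lay wholly before the start, and 100 bases around it are shown on the plus strand with the motif in capitals. They lie at chr6:30737936-30738035 for Mest, with the motif shown 67 bases before the start, the nearer to it of 2 in the Mest window, and at chr10:13090695-13090794 for Plagl1, with the motif 90 bases before the start.
Mest: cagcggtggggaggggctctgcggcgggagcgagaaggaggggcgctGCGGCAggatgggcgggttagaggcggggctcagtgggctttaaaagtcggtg
Plagl1: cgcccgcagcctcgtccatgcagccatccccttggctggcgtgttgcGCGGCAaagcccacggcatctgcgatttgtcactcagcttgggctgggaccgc

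The genes whose course was most like each member were ranked by Pearson r of log2(FPKM + 1), centred within each table, over the 34 course libraries. These points share their tables, stages and marker shifts, so r is a description. H19 and Igf2 were near the top of each other's ranking (r = 0.92): Igf2 led for H19, before Gpc1 (0.91) and Dtx4 (0.90), and Gpc1 (0.93) led for Igf2, before H19 and Igf1 (0.91). With the other members H19 had r of 0.83 (Ndn), 0.82 (Cdkn1c), 0.76 (Igf2r and Mest), 0.75 (Plagl1), 0.28 (Peg3), 0.23 (Grb10) and -0.78 (Snrpn). Of the members with an r of at least 0.75, Cdkn1c was most like Itm2a (0.87), Csgalnact1 and Agtr2 (0.86 each), and Plagl1 was most like Sema4c (0.87), Gpc4 (0.86) and Glis2 (0.85). Igf2r was most like Ilvbl (0.94), Creb3l2 (0.93) and Pkd1 (0.92), Mest was most like Prkcdbp, Rgs2 (0.93 each) and Marcks (0.92), and Ndn was most like Hipk3, Ehbp1l1 (0.94 each) and Fam219a (0.93). Snrpn was most like Dap3 and Mrpl45 (0.93 each), both mitochondrial ribosome genes, and Slc35f2 (0.92). Peg3 had no course close to its own (Apbb1 and Tvp23b 0.70, Mospd2 0.69), and Grb10 was most like Rab28 (0.81), Vat1 (0.80) and Fhl1 (0.79).

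The Myc libraries were set side by side in 8 comparisons, in which 2 to 7 of the 10 genes were past the fold used here. Snrpn was past it in none. The libraries come from the Mbd3f/- line on day 4 with overexpression of cMyc, of the 3 factors OSK, or of both, and from a secondary Mbd3f/- line with OSK and no inducible Myc (OSK2nd), made from iPSC that carried a TetO OKS-mCherry cassette and M2rtTA. In the latter, siRNA against Myc genes (cMyc, nMyc and lMyc) was transfected on day -3 and day 0 and cells were taken on days 3 and 7. A library with a Myc inhibitor was taken on day 3 and one with scrambled siRNA on day 7. Below, scrambled siRNA named without a stage is that day 7 library. Control MEF, also labelled as scrambled siRNA, gave 2 libraries. Each other condition is 1 library and no test was run, so these differences have no replicate check. A difference of at least 1 on the log2(FPKM + 1) scale is counted among 16430 genes. The comparisons share control libraries. The control MEF libraries had a median absolute difference of 0.101 over genes, with H19 at 693 and 687 FPKM and Igf2 at 4156 and 4113.

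On day 4, H19 stood at 127 FPKM with cMyc alone, 31.7 with OSK and 9.56 with OSK and cMyc. Igf2 stood at 163, 69.5 and 91.2 in the same order, so it did not follow H19 to the lowest level. Grb10 stood at 5.69 with cMyc, 123 with OSK and 37.0 with both, and Mest at 11.9, 16.9 and 70.3. Cdkn1c stood at 23.6, 8.26 and 4.17. Fibroblast markers summed to 751, 621 and 616 and pluripotency markers to 2.17, 88.1 and 22.4. Between OSK and cMyc alone 6 of 10 genes differed by the fold, where 32.2% of genes did: Grb10 was higher by 4.21 and Plagl1 by 1.03 with OSK, and H19 (-1.96), Cdkn1c (-1.41), Igf2r (-1.28) and Igf2 (-1.22) were lower. OSK with cMyc differed from OSK alone past the fold in 3 of 10, near the 26.8% of all genes that did. These were H19 (-1.63), Grb10 (-1.71) and Mest (2.00). Against cMyc alone, both together differed in 4 of 10, where 12.8% of genes did, with H19 at -3.60, Cdkn1c at -2.25, Grb10 at 2.51 and Mest at 2.47.

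In OSK2nd cells H19 stood at 103 FPKM on day 3 and 47.3 on day 7 with siRNA, at 263 on day 3 with the inhibitor and at 290.2 on day 7 with scrambled siRNA. Igf2 stood at 2465, 866, 1426 and 760.0 in that order. On day 7 the siRNA library was thus below the scrambled one for H19 (-2.59) and not for Igf2, and 2 of 10 genes, H19 and Grb10 (-1.06; 8.88 against 19.6 FPKM), were past the fold, where 7.27% of genes were (4.18% lower). The fibroblast sums moved with H19 there, at 1769 with siRNA and 5149 with scrambled siRNA on day 7, against 4842 and 5250 in MEF, 2785 on day 3 with siRNA and 3645 with the inhibitor, and their part in the difference was not tested. Cdkn1c stood at 64.4 and 67.1 in control MEF, 30.1 on day 3 and 16.2 on day 7 with siRNA, 9.45 with scrambled siRNA and 0.893 with the inhibitor. The inhibitor library thus differed from MEF by -5.14, the largest of the 10 in that comparison. No control library of day 3 is listed. Treatment and time therefore cannot be told apart where the inhibitor or siRNA library of day 3 is set against MEF. Inhibitor and MEF differed past the fold in 7 of 10, where 20.4% of genes did, with Igf2r (1.19) the 1 member higher. Scrambled day 7 and MEF differed in 6 of 10, all lower, where 12.6% of genes did (5.41% lower): Cdkn1c (-2.68), Igf2 (-2.44), Peg3 (-1.69), Plagl1 (-1.65), Mest (-1.64) and H19 (-1.25). On day 3 with siRNA 5 of 10 were lower than MEF, where 12.9% of genes differed (8.36% lower): H19 (-2.74), Plagl1 (-2.33), Peg3 (-1.87), Mest (-1.22) and Cdkn1c (-1.10). From day 3 to day 7 with siRNA 3 of 10 were lower, where 15.3% of genes differed (5% lower): Igf2 (-1.51), H19 (-1.10) and Grb10 (-1.09). Igf2r stood at 14.3 FPKM with siRNA on day 3, 21.2 on day 7, 48.1 with the inhibitor and 30.3 with scrambled siRNA, against 18.6 and 22.5 in MEF. Mest stood at 40.3, 21.8, 65.5 and 30.0 in the same order against 94.9 and 96.1, and Plagl1 at 9.93, 13.3, 20.8 and 16.5 against 48.7 and 59.5. Mest and Plagl1 were thus below both MEF libraries in all 4, and Igf2r was above them with the inhibitor and with scrambled siRNA. Of the remaining values, Ndn stood at 53.3, 59.9, 17.3 and 48.0 and Snrpn at 14.8, 11.6, 11.9 and 19.1 with siRNA on day 3 and day 7, inhibitor and scrambled siRNA, against 57.4 and 57.8, and 10.6 and 12, in MEF.

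**Figure D4:**
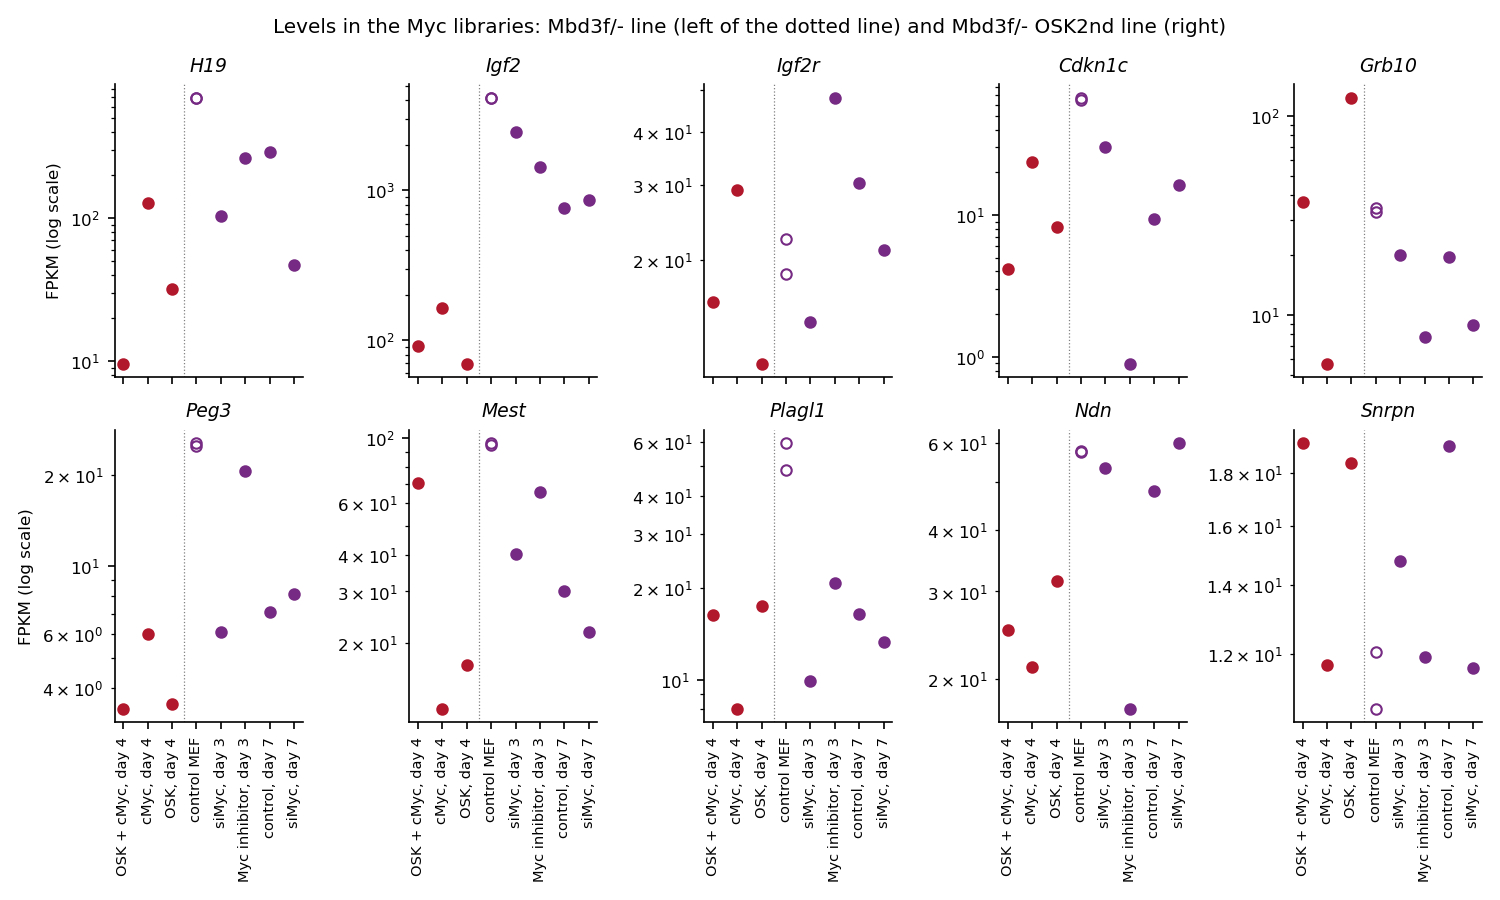
FPKM (log axis) of the 10 genes in the 9 Myc libraries, 1 point per library, with the day 4 libraries of the Mbd3f/- line and the OSK2nd libraries side by side. H19 is lowest with OSK and cMyc (9.56 FPKM), and Cdkn1c is lowest with the Myc inhibitor (0.893).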

How the data were processed

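The authors deposited FPKM in 5 tables, 1 per system and 1 for the Myc libraries, each scaled separately. Per the submitters' processing notes, the tools were Cufflinks 2.2.1, TopHat2 2.0.10 and CASAVA 1.8.2, with the build mm10. The sources used here do not give the annotation release. Depth per library is unknown, so no counting interval is given. All 37 mitochondrial genes are listed at 0, so a listed 0 can be a failed estimate. Differences on the log2(FPKM + 1) scale were fitted by limma 3.58.1 (R 4.3.3). Genes needed an FPKM of 1 or more in 2 or more libraries. The fit was made with trend and robust moderation, Benjamini-Hochberg adjustment (threshold 0.05) and the system, which is also the table, as a block. The 4-system fit had 24 libraries (MEF, days 2, 4, 6, 8, iPSC), 20296 genes and 10 residual degrees of freedom, the daily fit of the depleted systems 20 libraries, 20189 genes and 9, and the ES fit 14 libraries, 15929 genes and 6. Tables were prepared with Python 3.11.15 and pandas 2.3.3. The members and lists were chosen with earlier results of these data known. Beyond the 10 members, named genes are Dlk1, Meg3, the 4 other imprinted genes with the largest differences from MEF to iPSC (Rian, listed in more than 1 row, was left out), the 3 largest of each regulator list, Airn as the antisense partner of Igf2r (added after its values were seen), and the 3 genes most like each member. Alternatives were other pseudocounts, filters, moderation, quantile normalization, no block, fewer stages and left-out systems or libraries. Value columns that match no sample numbered 0.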

Additional observations from a re-analysis of the deposited data

Results flagged for a closer look

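In limma, 7 genes differed between the depleted and the wild-type systems in their change from MEF to days 4, 6 and 8, by the test of the difference itself (limma, adjusted p from 0.00042 to 0.037). The fitted depleted minus wild-type values on the log2 scale were -7.86 for H19, -8.33 for Igf2, -1.98 for Igf2r, -4.23 for Cdkn1c, -3.18 for Mest, -4.89 for Plagl1 and -2.44 for Ndn. Of all genes tested, 17.3% passed the same test. Igf2r and Ndn did not pass without WT-2. The fibroblast marker sums of those libraries were 28.4 to 315 FPKM in depleted and 2669 to 9819 FPKM in wild-type cells, and their part in the differences was not tested.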

How the results depend on the processing

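Of 950 alternatives for single genes in the fitted comparisons, 874 kept direction and side of the threshold, 31 were weaker, 11 were stronger and 0 reversed a call, and 34 changed sign where neither value passed. Of 220 alternatives in the Myc libraries, 4 moved past the fold or back. Replicate numbers exist only for the control MEF libraries, so the fits pair the stages of a line through the system block. An alternative left out this block and thus ignored the pairing. Without the block (no replicate block) the genes called fell to 6407 from MEF to iPSC, 3588 on depleted and 17 on wild-type days 4, 6 and 8, 1007 in their class difference (2 of 10 members lower) and 5 in the class difference of iPSC. In the daily fit they fell to 3030 on days 1 to 3 (3 members lower, 0 higher), 235 on days 5 and 6 (0 members lower), 337 on days 7 and 8 (0 members higher) and 111 from there to iPSC. Leaving out 1 system at a time, where the remaining system of a class is assumed to vary like the others, gave 7677 to 11055 genes from MEF to iPSC (7 to 8 members lower), 5418 to 7214 on depleted days (5 to 8 members lower) and 6 to 491 on wild-type days. The class difference then gave 1323 to 5267 genes, with 4 to 7 members lower, and that of iPSC gave 1 to 2673. Without WT-2 the former kept H19, Igf2, Cdkn1c, Mest and Plagl1. Without the filter the counts were 94 genes on wild-type days, 124 in the class difference of iPSC and 1 between ES and iPSC, with 0 members higher on days 1 to 3, 0 lower on days 5 and 6 and 0 higher on days 7 and 8. A filter at FPKM 5 gave 22 genes in the class difference of iPSC and 261 from days 7 and 8 to iPSC. A pseudocount of 0.1 gave 0 genes in the former and 2 members higher on days 7 and 8. Only the compared stages gave 1 member (Snrpn) higher in the class difference of days 4, 6 and 8, 0 genes in that of iPSC, 509 genes and 2 members lower on days 5 and 6, 1 member lower on days 7 and 8, 44 genes from there to iPSC and 1 gene between ES and iPSC. Without days 7 and 8 of Gatad2a-/-, an alternative chosen after seeing the data, 0 members were higher on the remaining days 7 and 8, 187 genes passed to iPSC and 1 member, Plagl1, was higher. Quantile normalization left 0 members higher on days 1 to 3, put 5 members past the fold from siRNA day 3 to day 7 and changed the sign of 0 called member differences. It moved the higher share of calls from 58.4% to 46.3% on days 7 and 8 and from 54.0% to 37.8% in the class difference of iPSC. The cause of these changes was not tested. The daily and ES fits leave no residual degrees of freedom without 1 system. With 2 lines per class, unknown depth and 1 library per stage, differences within a line have no replicate check.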
